A study of Drosophila melanogaster with 18 samples.

Results

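Of the 749 barcoded reporters in the table, 83 were selected on an expression value of 150 or more in both replicates of the GAL4 control, and these strongly expressed reporters are described here. Expression is the count of a barcode in cDNA divided by its count in genomic DNA (gDNA) of the same replicate, multiplied by 1 scaling factor per library, so it has no absolute unit. The reporters sat in a polyclonal pool of Drosophila Kc167 cells, a line of embryonic origin, and each carried 5 GAL4 binding sites, a metallothionein promoter, GFP and its own barcode. All cells received 0.5 mM copper sulfate, were transiently transfected with a plasmid, and were sorted for the mCherry encoded on that plasmid on day 2. The plasmids encoded ACF1 joined to the GAL4 DNA-binding domain (GAL4-ACF1), ACF1 with no such domain (ACF1), HP1a joined to the domain (GAL4-HP1), or the domain by itself (GAL4), all from the pAc5 backbone and with a V5 tag. Each of the 4 conditions had 2 cDNA and 2 gDNA libraries. The replicates are technical by the series text and biological by the study's methods, so every error given below may measure only technical spread. Since the GAL4 values chose the 83 reporters, all values against GAL4 are a description. Counts of test calls against GAL4 are printed beside the share of all reporters and nothing is read from them, while the comparisons among GAL4-ACF1, ACF1 and GAL4-HP1 used no library that entered the choice.

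A transgene placed at random takes on much of its expression from the chromatin around it, so the same promoter can be strong at one site and weak at another. ACF1 is a large non-catalytic protein found in ACF and CHRAC, a pair of fly remodelers in which the motor protein ISWI moves and spaces nucleosomes. HP1a binds histone H3 methylated at lysine 9 and is a classical component of heterochromatin, and the GAL4 domain brings a fused protein to the binding sites in front of the promoter.

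Each reporter is identified by a barcode of 21 bases, the only sequence that separates one reporter from another. The barcodes of some of the reporters named below are printed here. They are given as in the table, without capitals, since no base has a special role.
3L:3430681: gatacttagtagcttagcgcc
3R:4644683: tgggtaagggcaactgaactt
X:3325631: gggggggcacgtcaggaagtg
3R:398375: ttcggatgtccgcaggattca
X:21877163: tggtgctgacgtttctcagcg
3R:16427766: cagtacatcttctaggcgcca
3R:16362040: ttaacctattcctagggacgc
X:692319: ttcctgatttttgcgcgatag
3L:11320080: tctattcgggaaacgttgaat
3L:4414745: ggacgttcagaagaatagcca
2L:9997212: gaaacgaatgaacgagtacga
4:547814: ggtacttatgttcctcgatcg
A barcode of the 83 differed from every other barcode in the table at no fewer than 6 bases. Their median GC content was 47.6%, with a range of 28.6% to 76.2%, and the median of the other reporters was also 47.6%.

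The libraries held 2616438 to 4181903 cDNA counts and 1535023 to 2860908 gDNA counts. The 83 reporters took up most of the cDNA and a small part of the gDNA. They held 84.2% and 84.5% of the cDNA counts in the GAL4-ACF1 libraries, 77.9% and 80.9% in those of ACF1, 78.2% and 80.7% in those of GAL4-HP1, and 71.1% and 73.8% in those of GAL4, but 11.9% to 13.0% of the gDNA counts. The median reporter among the 83 had 7822 to 13120 cDNA counts and 1091 to 2114 gDNA counts. None was at 0 in any library. The lowest cDNA count was 132, for 3L:11320080 in the first GAL4-ACF1 library, and the lowest gDNA count was 105. Reads carried no molecular identifiers, so they are not independent molecules. In a pool, fewer expressing cells and less RNA per cell cannot be told apart. Because the data hold barcodes and no endogenous transcripts, the identity of the cells could not be checked.

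Strongly expressed reporters were found on every large chromosome arm, and those on arm 2R are named by position without a barcode. Arm 3R held 23 of them among its 176 reporters (13.1%), 3L 18 of 150 (12%), 2R 16 of 112 (14.3%), X 15 of 147 (10.2%) and 2L 9 of 131 (6.87%). Chromosome 4, a small chromosome rich in HP1a, held 1 of 5, at 4:547814. The pericentric scaffold 2RHet held 1 of 10, at 2RHet:3051092, and the 7 reporters on 3LHet, 7 on 3RHet, 2 on U, 1 on Uextra and 1 on XHet included none. On the plus strand were 38 of the 83 (45.8%), against 46.5% of all 749 reporters. Positions follow dm3, the build in the submitters' processing notes, and no gene annotation of that build was at hand.

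Some of the strong reporters lay near each other. Within 100 kb of another member of the group were 21 of the 83 (25.3%), in 9 groups, while 82 of the 666 other reporters (12.3%) had a strong reporter that close. The closest pair was 11276 bases apart and the median distance to the next strong reporter was 414 kb. In 3 of the groups there were 3 reporters each, at 2R:6711298 to 2R:6743618 (32.3 kb), 2R:8464778 to 2R:8573941 (109 kb) and 3R:18412244 to 3R:18454653 (42.4 kb). The other reporters within 100 kb of a strong one had a median GAL4 expression of 33.2, against 21.3 for those farther away. The medians were 26.9 against 22.7 in replicate 1 and 30.5 against 17.5 in replicate 2. The quartiles of the means overlapped widely, at 11.8 to 70.3 against 7.80 to 54.1. These values come from the same GAL4 libraries that chose the strong reporters, and the difference was not tested. The lowest of the reporters within 100 kb had a GAL4 mean of 0.948.

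In GAL4, the values that defined the group ran over a wide range. The median of the 83 was 381 in replicate 1 and 315 in replicate 2. The highest mean was that of 3L:3430681, at 7300.05 and 7118 in the GAL4 replicates, followed by 2R:8505191 at 3064 and 5283. Next came 3R:4644683 at 2799 and 2785 and X:3325631 at 2532 and 2780.1. At the lower end, 3R:27577880 stood at 153 and 150.2 and 2L:19111305 at 155 and 152. Just outside the threshold were X:16691435 at 178 and 147 and 3L:11992212 at 147 and 245. In all, 55 reporters passed it in 1 GAL4 replicate only, 22 in replicate 1 and 33 in replicate 2.

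Replicates of these reporters differed more in gDNA than in cDNA. Between replicates, the SD of the log2 ratio of cDNA shares over the 83 reporters was 0.60 with GAL4-ACF1, 0.44 with ACF1, 0.49 under GAL4-HP1 and 0.37 with GAL4. That of gDNA shares was higher in each, at 0.85 with GAL4-ACF1, 0.82 for ACF1, 0.88 under GAL4-HP1 and 0.98 for GAL4. The 83 were chosen on high values in both GAL4 libraries and have deep cDNA counts. Their spread in GAL4, and its contrast with other reporters, is therefore not independent of the choice. No strong reporter differed more than 2-fold between the GAL4 replicates in its cDNA share, and 19 did so in their gDNA share. The 559 other reporters kept for the tests had the reverse pattern with GAL4-ACF1, with an SD of 1.78 for cDNA over those detected in both replicates and of 0.90 for gDNA, while with GAL4 both were close, at 0.94 for cDNA and 0.98 for gDNA. The clearest case was X:21877163, whose GAL4 expression was 319 and 3287. Its cDNA counts there were 9599 and 7638, while its gDNA counts were 2075 and 108. In 2R:14509391 the GAL4 expression was 634 and 3299, with cDNA counts of 40314 and 51116 and gDNA counts of 4376 and 720. The rank of both reporters among the 8 highest therefore rests on 1 gDNA library.

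With GAL4-ACF1 the median expression of the 83 was 304 and 312 in the replicates, with ACF1 it was 451 and 375, under GAL4-HP1 it was 205 and 140.2, and with GAL4 it was 381 and 315. GAL4-HP1 thus had the lowest medians and ACF1 the highest in replicate 1, whereas in replicate 2 the medians of ACF1, GAL4 and GAL4-ACF1 lay close together. The median fold between replicates of the same reporter was 1.37 with GAL4-ACF1, 1.47 with ACF1, 1.69 under GAL4-HP1 and 1.43 with GAL4. With GAL4-HP1, replicate 1 was the higher in 68 of the 83 reporters.

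These directions depend on the scaling between libraries. The factor that turns a ratio of library shares into expression was 94.1 and 95.3 with GAL4-ACF1, 147 and 112 with ACF1, 78.4 and 46.9 under GAL4-HP1, and 108 in both GAL4 replicates. Scaling to library totals instead shifted the median log2 change of all 642 kept reporters by 0.20 for GAL4-ACF1 over GAL4, by -0.28 for ACF1 over GAL4, by 0.81 for GAL4-HP1 over GAL4, by 0.46 for GAL4-ACF1 over ACF1, by -0.57 for GAL4-ACF1 over GAL4-HP1, and by -1.06 for ACF1 over GAL4-HP1. The kept reporters are those with a mean above 0 in every condition, which all 83 were. Most cDNA reads came from the 83 themselves, so library totals set them largely against their own sum. A change shared by the 83 is thus mostly removed by construction. Values with totals therefore cannot decide whether a direction under the deposited scaling holds. A factor per library moves all its reporters alike. The position of the strong reporters relative to the median of all kept reporters therefore changes little by construction, and is no check of the scaling. It is given beside each comparison, and in single replicates it covers the reporters above 0 in both conditions.

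Tethered ACF1 left the strong reporters with a median log2 change of -0.35 against GAL4 (-0.19 in replicate 1 and -0.23 in replicate 2). Of the 83, 55 were lower and 28 higher, where 84.9% of all kept reporters were lower. Both GAL4-ACF1 libraries lay below both GAL4 libraries in 27 reporters and above them in 16, where 60.3% of all kept reporters were below and 4.36% above. The median of all kept reporters was -1.44, so the strong ones stood 1.09 above it (1.18 in replicate 1 and 1.03 in replicate 2). With library totals this was 1.09, by construction close to the same. Their own median was -0.15 with totals. The median of fitted changes was 0.86 with TMM factors and 1.06 with median-of-ratios factors, so its sign depends on the scaling. Both kinds of factor moved the median fitted change of all kept reporters close to 0, to -0.29 and -0.11, from -1.42 in the main fit. The positive values thus largely restate the position relative to all kept reporters.

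Reporter by reporter, the responses to GAL4-ACF1 ranged from -3.69 to 1.66 on the log2 scale. The lowest was 3R:16427766, with expression of 9.67 and 35.6 with GAL4-ACF1 against 323 and 261 with GAL4. Its cDNA counts were 140 and 830 against 4060 and 5654, and without division by gDNA the log2 change was -3.31. X:692319 had 25.0 and 29.9 with GAL4-ACF1 against 194 and 315 with GAL4, a log2 change of -3.22 that was -1.90 without gDNA. X:6564746 had 22.6 and 27.3 with GAL4-ACF1 against 260.0 and 167 with GAL4, a change of -3.10 that was -1.19 without gDNA. 3R:17660186 had 28.1 and 52.6 against 177 and 525, a change of -3.12 that was -1.48 without gDNA. These decreases were smaller without gDNA in all 4 reporters. The 4 were picked as extremes of the ratio with gDNA, so a smaller change without it follows largely from the choice. 3R:398375 had 3724 and 9706 with GAL4-ACF1 against 1855 and 2402 with GAL4, a log2 change of 1.66 that was 0.16 without division by gDNA. X:3325631 had 7150.1 and 9516 against 2532 and 2780.1, a change of 1.65 that was 0.03 without gDNA, since its cDNA counts were 90862 and 102063 with GAL4-ACF1 and 106978 and 108997 with GAL4. 3R:15725714, at 499.5 and 594 against 221 and 289, had a change of 1.10 that turned to -0.41 without gDNA. These 3 increases, picked in the same way, were at most 0.16 without division by gDNA.

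ACF1 without the GAL4 domain left the strong reporters at a median log2 change of 0.10 against GAL4 (0.26 in replicate 1 and -0.01 in replicate 2), which became -0.13 with library totals. Of the 83, 47 were higher and 36 lower, and with totals 36 were higher and 47 lower. Among all kept reporters 33.8% were higher under the deposited scaling, and 159 of 642 with totals. Both ACF1 libraries lay below both GAL4 libraries in 14 reporters and above them in 23, where the shares among all kept reporters were 31.9% and 10.6%. All kept reporters had a median of -0.40, so the strong ones stood 0.50 above it, and 0.55 above it with totals. By replicate this was 0.46 in replicate 1 and 0.55 in replicate 2.

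The extreme single reporters, again picked by the ratio with gDNA, had smaller changes without it. The largest increase was that of 2R:6722574, with 2042 and 6004 with ACF1 against 672 and 860.1 with GAL4. It had 21057 and 24819 cDNA counts with ACF1 against 24062 and 19470 with GAL4, and a gDNA count of 176 in the second ACF1 library. The log2 change of 2.39 was 0.37 without gDNA. The largest decrease was that of 3R:17660186, at 93.9 and 31.8 with ACF1 against 177 and 525 with GAL4, and its change of -2.48 was -0.79 without gDNA. 2R:8573941 had a change of -2.17 that was -0.89 without gDNA, the lowest of the 83 on cDNA alone. For X:7975854, a change of -2.14 became 0.13, and for 2R:9860658 a change of -1.64 became 0.10. On cDNA alone with the deposited scaling, the changes of all 83 with ACF1 lay between -0.89 and 0.88, and their SD fell to 0.35, against 0.91 with gDNA.

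GAL4-HP1 gave the lowest of the 3 medians against GAL4 under the deposited scaling, a log2 change of -1.18 (-0.95 in replicate 1 and -1.55 in replicate 2), although with library totals the median was -0.38 and relative to all kept reporters it was 0.29. Relative to all kept reporters, replicate 1 gave 0.23 and replicate 2 gave 0.31. Of the 83, 77 were lower and 6 higher, and with totals 59 were lower and 24 higher. Among all kept reporters 90.5% were lower under the deposited scaling, and 462 of 642 with totals. Both GAL4-HP1 libraries lay below both GAL4 libraries in 56 reporters and above them in 1, where the shares among all kept reporters were 65.3% and 0.935%.

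The only reporter with both GAL4-HP1 libraries above both GAL4 libraries was 3L:4414745, with 1260.3 and 851 with GAL4-HP1 against 184 and 232 with GAL4. Its gDNA counts were 230 and 208 against 1379 and 770, its cDNA counts were 4185 and 5865 against 3693 and 3851, and its log2 change of 2.34 turned to -0.22 without gDNA. On cDNA alone with the deposited scaling, 604 of the 642 kept reporters were lower than in GAL4, among them 82 of the 83. The remaining one was 3R:4644683, the reporter with the largest share of cDNA in every library but the second of ACF1. Its expression was 3854 and 2679.8 with GAL4-HP1 against 2799 and 2785 with GAL4, a log2 change of 0.23 (0.19 on cDNA alone). With gDNA the lowest was 3R:5428045, at 47.6 and 31.0 with GAL4-HP1 against 589 and 158 with GAL4, a log2 change of -3.25 that was -2.12 on cDNA alone. 3R:16427766, the reporter lowest with GAL4-ACF1, was also low with GAL4-HP1, at 51.2 and 16.3 against 323 and 261. Its log2 change of -3.11 was -2.50 on cDNA alone, the lowest of the 83 there. X:21877163 had a change of -3.09 (-0.95 in replicate 1 and -3.66 in replicate 2) that was -0.36 on cDNA alone. 3R:17660186 had a change of -2.67 (-1.03 in replicate 1 and -4.47 in replicate 2) that was -1.22 on cDNA alone. These decreases were all smaller on cDNA alone, which follows largely from their choice by the ratio with gDNA. The 3 comparisons above share the GAL4 libraries, so they are not independent of each other.

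The GAL4 libraries that chose the reporters are also the control arm of every test against GAL4, so the calls that follow are counted only and are no test of the group. With the edgeR quasi-likelihood test at an adjusted p under 0.05, 0 of the 83 were called with GAL4-ACF1 (4.98% of all kept reporters), 0 under free ACF1 (0%) and 0 under GAL4-HP1 (0.467%). At an unadjusted p under 0.05 it called 11 with GAL4-ACF1 (26%), 5 under free ACF1 (5.76%) and 28 under GAL4-HP1 (25.1%). DESeq2 with the same library sizes called 7 with GAL4-ACF1, 0 under free ACF1 and 16 under GAL4-HP1, where it called 20.9%, 1.09% and 17.7% of the reporters to which it gave an adjusted p. For GAL4-ACF1 the edgeR count was 1 without the first GAL4-ACF1 replicate and 2 without the second, and for GAL4-HP1 it was 10 without the first GAL4-HP1 replicate.

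GAL4-ACF1 and ACF1 differ by the GAL4 domain, and neither entered the choice of reporters. The strong reporters had a median log2 change of -0.41 for GAL4-ACF1 over ACF1 (-0.50 in replicate 1 and -0.35 in replicate 2) under the deposited scaling, which became 0.02 with library totals. Under the deposited scaling 63 were lower with GAL4-ACF1 and 20 higher, and with totals 40 were lower and 43 higher. Among all kept reporters 79.1% were lower under the deposited scaling, and 431 of 642 with totals. Since the strong reporters make up most of the cDNA totals, the values with totals do not test this direction. Both GAL4-ACF1 libraries were below both ACF1 libraries in 37 reporters and above them in 6, where 45% and 3.74% of all kept reporters were. All kept reporters had a median of -0.99, and the strong ones stood 0.58 above it (0.55 with totals). By replicate this was 0.57 in replicate 1 but 0.21 in replicate 2. The edgeR test called 0 of the 83 and 0.623% of all kept reporters, with 6 of the 83 at an unadjusted p under 0.05 (14.8% of all kept reporters). DESeq2 with the same library sizes called 2 (4.73% of those to which it gave an adjusted p), and edgeR without the second GAL4-ACF1 replicate called 1. In data simulated from these libraries the edgeR test called 12% of 4-fold and 72% of 16-fold changes. The 0 calls therefore do not show that GAL4-ACF1 and ACF1 acted alike. The changed reporters were drawn from all kept reporters, so these rates are not those of the 83.

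The lowest fitted changes for GAL4-ACF1 over ACF1 were those of the 5 reporters that follow, all outside the adjusted threshold. 3R:16427766 had 9.67 and 35.6 with GAL4-ACF1 against 120.4 and 211 with ACF1, and its fitted log2 change was -2.80 ± 0.97 (SE, edgeR adjusted p = 0.228). X:692319 had 25.0 and 29.9 against 213 and 119, with a fitted change of -2.57 ± 0.96 (edgeR adjusted p = 0.241). Of the next 3, 2L:1690094 and 3L:11320080 were chosen after their values were seen. 2L:1690094 had 526 and 279 with GAL4-ACF1 against 2118 and 1502 with ACF1 (fitted change -2.34 ± 0.72, edgeR adjusted p = 0.167), and its change was -1.25 on cDNA alone. 3L:4414745 had 130.1 and 179 against 1364 and 471 (fitted change -2.27 ± 0.72, edgeR adjusted p = 0.177), and its change was -0.50 on cDNA alone. 3L:11320080 had 19.2 and 108.9 against 385 and 169 (fitted change -2.16 ± 1.05, edgeR adjusted p = 0.34), with log2 changes of -4.32 in replicate 1 and -0.63 in replicate 2. It had 132 and 755 cDNA counts with GAL4-ACF1 against 2518 and 2327 with ACF1, and on cDNA alone its log2 change of -2.74 was the lowest of the 83. With GAL4-ACF1 over GAL4-HP1 on cDNA alone the log2 changes were -0.81 for 3R:16427766, -0.67 for X:692319 and -1.43 for 3L:11320080, but 0.38 for 2L:1690094 and 0.16 for 3L:4414745. On cDNA alone with the deposited scaling, 80 of the 83 were lower with GAL4-ACF1 than with ACF1, where 557 of the 642 kept reporters were lower. Libraries did not overlap in 48 of the 80, where 52.8% of all kept reporters were below.

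Tethered ACF1 and tethered HP1a share the GAL4 domain. The strong reporters had a median log2 change of 0.72 for GAL4-ACF1 over GAL4-HP1 (0.69 in replicate 1 and 1.13 in replicate 2). It became 0.09 with library totals. The median stood 0.63 above that of all kept reporters (0.57 with totals), at 0.93 in replicate 1 and 0.52 in replicate 2. Of the 83, 67 were higher with GAL4-ACF1 and 16 lower, and with totals 50 were higher and 33 lower. Among all kept reporters 52.8% were higher under the deposited scaling, and 218 of 642 with totals. Both GAL4-ACF1 libraries were above both GAL4-HP1 libraries in 48 and below them in 3, where 22.3% and 15.9% of all kept reporters were. The edgeR test called 1 of the 83, against 0.467% of all kept reporters, with 20 of the 83 at an unadjusted p under 0.05 (11.2% of all kept reporters). DESeq2 with the same library sizes called 12 and gave no adjusted p for 9 (it called 9.12% of those to which it gave one). The reporter that edgeR called was 2R:3450480, with 1063 and 1545 with GAL4-ACF1 against 394 and 316 with GAL4-HP1. Its fitted log2 change was 1.85 ± 0.36 (SE, edgeR adjusted p = 0.0425), and it was 1.31 on cDNA alone. The call was lost with library totals (edgeR adjusted p = 0.0593) and when either replicate of either condition was left out (edgeR adjusted p = 0.0709 to 0.144). It was also lost with the cDNA and gDNA library of a replicate as a block (edgeR adjusted p = 0.16), on cDNA alone (edgeR adjusted p = 0.21) and with limma (limma adjusted p = 0.275). 2L:9997212, chosen after its values were seen, had close replicates, at 244 and 234 with GAL4-ACF1 against 95.8 and 63.9 with GAL4-HP1 (fitted log2 change 1.59 ± 0.37, edgeR adjusted p = 0.0884).

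ACF1 against GAL4-HP1 gave the largest of the 3 median differences that did not use GAL4, under the deposited scaling. The median log2 change of the strong reporters was 1.28 for ACF1 over GAL4-HP1 (1.16 in replicate 1 and 1.41 in replicate 2). It became 0.13 with library totals. The median stood 0.26 above that of all kept reporters (0.18 with totals), at 0.26 in replicate 1 but 0.08 in replicate 2. Of the 83, 79 were higher with ACF1 under the deposited scaling and 49 with totals. Among all kept reporters 77.7% were higher under the deposited scaling, and 306 of 642 with totals. Both ACF1 libraries were above both GAL4-HP1 libraries in 62 and below them in 0, where 45.8% and 4.98% of all kept reporters were. The edgeR test called 0 of the 83 and 0% of all kept reporters, with 39 of the 83 at an unadjusted p under 0.05 (19.3% of all kept reporters), and the lowest adjusted p among the 83 was 0.0781. DESeq2 with the same library sizes called 18 (10.8% of those to which it gave an adjusted p). When the edgeR test was run on the cDNA libraries alone, with the deposited scaling, it called 45 of the 83, all higher with ACF1, where 12.9% of all kept reporters were called. The 83 had closer cDNA replicates than the other kept reporters detected in both replicates. The SD of their log2 cDNA ratio was 0.44 against 1.68 with ACF1 and 0.49 against 1.64 with GAL4-HP1. A higher share called or not overlapping, here and in the comparisons above, is therefore no measure of a larger change. On cDNA alone all 83 were higher with ACF1 under the deposited scaling, where 524 of the 642 kept reporters were. The smallest difference among the 83 was that of 2R:14509391, at 0.07 on the log2 scale. Without the first GAL4-HP1 replicate the full edgeR test called 8.

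The reporters highest in GAL4 did not respond alike. 3L:3430681 had 2670.1 and 912 with GAL4-ACF1, 4374 and 7055 with ACF1, 2264 and 834 under GAL4-HP1, and 7300.05 and 7118 in GAL4. Its log2 change against GAL4 was -2.01 with GAL4-ACF1 and -2.22 with GAL4-HP1 (-1.25 and -1.88 on cDNA alone). 2R:8505191 had 7275 and 5985 with GAL4-ACF1, 8134 and 6353 with ACF1, 4233 and 3124 under GAL4-HP1, and 3064 and 5283 in GAL4. Both tethered and free ACF1 libraries lay above its GAL4 libraries, and its log2 change was 0.67 with GAL4-ACF1 (0.62 on cDNA alone). 3R:4644683 stayed within a narrow range, at 3225 and 4207 with GAL4-ACF1, 4569.9 and 2705 with ACF1, and the values given above for GAL4-HP1 and GAL4. 3L:3387336 had 1400.5 and 1582 with GAL4-ACF1 and 1595 and 693 with GAL4-HP1 against 2764 and 1549 with GAL4, and its GAL4-ACF1 libraries overlapped those of GAL4.

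Under the deposited scaling, GAL4-HP1 was the lowest of the 3 conditions in 65 of the 83 by the means of both replicates, in 57 by replicate 1 and in 70 by replicate 2. GAL4-ACF1 was lowest in 16 by the means and ACF1 in 2. ACF1 was highest in 61 by the means, in 64 by replicate 1 and in 52 by replicate 2. The full order ACF1, GAL4-ACF1, GAL4-HP1 held in 47 by the means, in 41 by replicate 1 and in 47 by replicate 2. The Pearson correlation of log2 GAL4 expression with the log2 change, over the 83 reporters of the same libraries, was 0.089 for GAL4-ACF1 over ACF1, 0.127 for GAL4-ACF1 over GAL4-HP1 and 0.064 for ACF1 over GAL4-HP1.

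Split by GAL4 level into a lower, a middle and an upper set, the strong reporters gave medians for GAL4-ACF1 over ACF1 of -0.31 over 28 reporters, -0.64 over 27 and -0.23 over 28. For GAL4-ACF1 over GAL4-HP1 the medians were 0.65 in the lower, 0.66 in the middle and 1.13 in the upper set, and 27 of the 28 reporters in the upper set were higher with GAL4-ACF1. For ACF1 over GAL4-HP1 they were 1.14 in the lower, 1.31 in the middle and 1.39 in the upper set. In that order replicate 1 gave 1.21, 1.16 and 1.04 and replicate 2 gave 1.13, 1.62 and 1.54, so replicate 1 had no rise. For GAL4-ACF1 over GAL4-HP1 replicate 1 gave 0.50, 0.27 and 0.82 and replicate 2 gave 1.13, 1.01 and 1.22. For GAL4-ACF1 over ACF1 replicate 1 gave -0.66, -0.72 and -0.30 and replicate 2 gave -0.005, -0.43 and -0.29. None of these differences between sets was tested.

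The neighbours in a group did not always move alike. 3R:16362040 and 3R:16427766 lay 65.7 kb apart. 3R:16362040, which was chosen after its values were seen, had 787 and 925 with GAL4-ACF1 against 438 and 568 with GAL4, a log2 change of 0.77 (-0.05 on cDNA alone). 3R:16427766 had the change of -3.69 given above (-3.31 on cDNA alone). In the group at 2R:8464778 to 2R:8573941, the log2 changes with GAL4-ACF1 against GAL4 ranged from -2.75 to 0.67. In the group at 3R:18412244 to 3R:18454653 all 3 were lower with GAL4-ACF1 than with GAL4, with log2 changes of -1.90 to -0.52. In the group at 2R:6711298 to 2R:6743618, the replicates did not always have the same sign. For GAL4-ACF1 over GAL4-HP1 the log2 change of 2R:6711298 was 2.47 in replicate 1 and -0.45 in replicate 2, while 2R:6722574 had 0.99 and 0.82 and 2R:6743618 had 0.33 and 1.75. Of these, 2R:6711298 and 2R:6743618 fell outside the rule for named reporters given below, and the other groups were not described for this comparison.

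For GAL4-ACF1 over ACF1 the median log2 change was -0.25 on 3R, -0.40 on 3L, -0.33 on 2R, -0.57 on X and -0.09 on 2L. The 9 reporters on 2L had the highest median for GAL4-ACF1 over GAL4-HP1, at 1.54, and the 23 on 3R the lowest of the large arms, at 0.53. None of these differences between arms was tested. The reporter on chromosome 4, 4:547814, had 326 and 356 with GAL4-ACF1, 582 and 479 with ACF1, 288 and 148 under GAL4-HP1, and 557 and 431 with GAL4. Its GAL4-ACF1 and ACF1 libraries did not overlap, and its gDNA counts of 15188 to 23343 were among the deepest of the group. The reporter at 2RHet:3051092 had 1750.4 and 526 with GAL4-ACF1, 990.1 and 1395 with ACF1, 419 and 270.0 under GAL4-HP1, and 1075 and 859.7 with GAL4. With GAL4-HP1 it lay below every library of the other conditions.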

How the data were processed

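Barcodes were measured in 8 cDNA and 8 gDNA libraries of 4 conditions. The deposited counts are whole barcode reads per reporter, not normalized, and the counting software is not given in the sources used here. The authors' expression value is the ratio of cDNA to gDNA count, multiplied by the authors' factor per library, which was checked to be constant within a library and holds a spike-in scaling (2.5% of cells) that could not be recomputed. Log2 changes are of means of both replicates, without a pseudocount. Tests used edgeR 4.0.16 (R 4.3.3) on the deposited counts of all 642 reporters with a mean above 0 in each condition, 16 libraries in 8 groups, the contrast being the cDNA change minus the gDNA change. cDNA library sizes carried the deposited scaling, and Benjamini-Hochberg adjustment ran over the 642. The common dispersion was 0.377. DESeq2 1.42.0 and limma 3.58.1 were alternatives. In simulated data, 0% of 2-fold, 12% of 4-fold, 72% of 16-fold and 94% of 64-fold changes were called for GAL4-ACF1 over ACF1 (50 reporters each, drawn from all 642). Exact permutation of 2 against 2 libraries cannot go below p = 0.33, so medians carry no test. Named reporters were the 8 highest in GAL4, the 4 lowest and 4 highest per condition against GAL4 among those whose libraries did not overlap and whose gDNA counts were all at least 50, those called, those at the threshold, and those on chromosome 4 or 2RHet; others are marked. The reporters, lists and tests were chosen with earlier results of these data known.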

Additional observations from a re-analysis of the deposited data

How the results depend on the processing

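Library totals consist mostly of the strong reporters' own cDNA, so that scaling largely removes a change they share. The median log2 changes of the strong reporters moved as follows. Scaling to library totals gave -0.15 for GAL4-ACF1 over GAL4, -0.13 for ACF1 over GAL4, -0.38 for GAL4-HP1 over GAL4, 0.020 for GAL4-ACF1 over ACF1, 0.090 for GAL4-ACF1 over GAL4-HP1 and 0.13 for ACF1 over GAL4-HP1. Relative to all kept reporters the values were 1.09, 0.50, 0.29, 0.58 and 0.26 for these comparisons without GAL4-ACF1 over GAL4-HP1. In the same order, fitted changes were 0.86, 0.45, 0.29, 0.43 and 0.10 with TMM, and 1.06, 0.52, 0.26, 0.55 and 0.17 with median-of-ratios factors. Without division by gDNA, which by construction equals a mean gDNA share, GAL4-ACF1 over GAL4 was -0.14 and ACF1 over GAL4 was 0.32. A threshold of 100 gave -0.52 for GAL4-ACF1 over GAL4 and -0.57 for GAL4-ACF1 over ACF1, and a threshold of 300 gave -0.16 for GAL4-ACF1 over GAL4. Single replicates gave -0.23 to -0.19 for GAL4-ACF1 over GAL4 and 0.69 to 1.13 for GAL4-ACF1 over GAL4-HP1.

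Counts of the 83 called moved as follows. For GAL4-ACF1 over GAL4 (0), totals gave 3 (2 lower, 1 higher), TMM 10 (0 lower), DESeq2 7 (6 lower) or, with its own factors, 26 (1 lower, 25 higher), no filter 4 (3 lower), reporters above 0 in every library 5 (4 lower), at least 10 counts 5 (4 lower), cDNA alone 1 (lower), and leaving out a replicate 0 to 2 (all lower). The direction of calls against GAL4 thus turned with TMM or DESeq2's own factors, which move the median of all kept reporters close to 0. For ACF1 over GAL4 (0), DESeq2's own factors gave 6, all higher. For GAL4-HP1 over GAL4 (0), totals gave 1 and TMM 2, all higher, DESeq2 16 (15 lower) or 7 (0 lower), above 0 in every library 6, at least 10 counts 9, cDNA alone 10, and leaving out a replicate 0 to 10, the last 4 all lower. For GAL4-ACF1 over ACF1 (0), DESeq2 gave 2, both lower, or 4, all higher, and leaving out a replicate 0 to 1. For GAL4-ACF1 over GAL4-HP1 (1), totals gave 1 (lower, while 2R:3450480 was higher), TMM 4 (1 lower), DESeq2 12 (1 lower) or 13 (1 lower), no filter 4 (all higher), limma, cDNA alone and a block of cDNA with gDNA 0, and leaving out a replicate 0 to 1. For ACF1 over GAL4-HP1 (0), DESeq2 gave 18, all higher, or 2 (1 lower), above 0 in every library 1, at least 10 counts 5, cDNA alone 45, and leaving out a replicate 0 to 8, the last 4 all higher. The causes were not tested. With the replicate number as a block, 1 was called for GAL4-ACF1 over GAL4 and 2 for GAL4-HP1 over GAL4, and the other counts stayed within 1.5 times. Correlations of replicate differences between conditions ran from -0.21 to 0.21, which does not settle whether libraries of the same replicate number were paired.

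With 2 replicates per condition precision is low. Replicates of these reporters differed more in gDNA than in cDNA, and what sets the gDNA spread was not tested.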
